A study of Mus musculus with 10 samples.

Results

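The genes described here are 9 TALE homeobox genes that encode cofactors of HOX proteins or related repressors: Meis1, Meis2, Meis3, Pbx2, Pbx3, Pbx4, Pknox1, Tgif1 and Tgif2. They were chosen by name as members of the MEIS, PBX, PKNOX and TGIF classes, out of 24015 genes in the count table, of which 17450 had a read in at least 1 library. RNA sequencing was done on MAF9 cells, which are bone marrow cells of C57BL/6 mice transduced with the leukemia fusion gene MLL-AF9 and grown with 15% serum and 10 ng/ml IL-3. Each of 5 groups had 2 libraries, labelled as biological duplicates: a DMSO control, and cells kept for 4 days with MM-401, EPZ, MI or iBET, each at its half-maximal inhibitory concentration. MM-401 blocks the binding of MLL1 to WDR5, EPZ (EPZ5676) inhibits the H3K79 methyltransferase DOT1L, MI (written as MI-2 in the sample protocol and MI-2-2 in the study's text) blocks the binding of menin to MLL proteins, and iBET inhibits BET bromodomain proteins. All groups carry the fusion gene, so no group shows bone marrow cells without it. The number of donors or clones behind these cells is not stated, and the sex-linked reads that bear on it are described below. P-values given below set differences between groups against the spread between the replicate libraries of these samples, estimated over the groups together.

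TALE proteins carry an atypical homeodomain with a short loop extension and bind DNA together with HOX proteins, which raises the selectivity and affinity of HOX binding. PBX proteins contact HOX and MEIS or PKNOX proteins, and MEIS1 together with HOXA9 is a well-known driver of MLL-rearranged leukemia. TGIF proteins are shorter repressors that recruit corepressors and act on SMAD and retinoid signalling.

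Between 20394762 and 29473127 reads were counted per library. The DMSO libraries held 23717378 and 20394762 reads, the MM-401 libraries 22656926 and 23187667, the EPZ libraries 21249483 and 23505117, the MI libraries 23793470 and 29473127, and the iBET libraries 21875517 and 25401181. Levels are given as normalised read counts (CPM after TMM scaling of the library sizes, TMM CPM), which may be compared between libraries for 1 gene. Differences are log2 fold changes from edgeR's quasi-likelihood test on all 10 libraries together, with Benjamini-Hochberg adjusted p-values over the 12971 genes that passed the count filter and a threshold of 0.05. Of the 9 genes 8 passed the filter, and Meis2 did not. Meis3 passed only through the EPZ and MI libraries, where its counts were highest. Pbx4 passed only through the DMSO, MM-401 and iBET libraries, where its counts were higher than in EPZ and MI.

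The spread between replicates was widest in the DMSO group. Across genes the Pearson correlation of log2 values between replicates was 0.942 in DMSO, 0.983 in EPZ, 0.983 in MI, 0.991 in MM-401 and 0.992 in iBET. More than 2-fold apart were 19.3% of genes in DMSO, 3.42% in MM-401, 5.71% in EPZ, 6.07% in MI and 4.05% in iBET. Reads of Uty, Kdm5d, Eif2s3y and Ddx3y, which lie on the Y chromosome, added up to 3630 in DMSO replicate 2, while no other library of the remaining 9 had more than 2. Xist, transcribed from the inactive X chromosome, was at 4.65 TMM CPM in DMSO replicate 2, at 2818 in DMSO replicate 1 and between 1026 and 2194 in the 8 treated libraries. The library labelled DMSO replicate 2 thus did not match the other libraries in its sex-linked genes. With Y-linked reads in this library and high Xist in the others, the libraries do not look like cells of a single donor. The p-values against DMSO nevertheless treat both DMSO libraries as replicates, and the part of this mismatch in the differences was not tested. The differences of the TALE genes from DMSO and the counts of each list are therefore also given without replicate 1 and without replicate 2 of that group, where the lone DMSO library left is assumed to vary like the other groups. All comparisons with DMSO share these 2 control libraries.

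Markers of myeloid differentiation separated the EPZ and MI libraries from the rest. The study's text instead describes obvious myeloblast differentiation with MM-401 and not with the other inhibitors, with data not shown. The values given here are RNA levels of marker genes only. Summed over 8 neutrophil genes, of which Ngp was the most abundant over the 10 libraries, the level was 727 and 220.4 TMM CPM in DMSO, 998 and 1159 in MM-401, 18538 and 24042 in EPZ, 18131 and 18450.4 in MI, and 134 and 81.0 in iBET. Of all tested genes 38.1% were called with EPZ, 41.4% with MI and 13.9% with iBET, and the counts of every marker list stand beside these shares. All 8 neutrophil genes rose with EPZ (median log2 fold change 5.46) and with MI (5.71), and 2 fell with iBET (median -1.41). Over 8 macrophage genes, the sum was 139.5 and 95.1 TMM CPM in DMSO, 282 and 259 in MM-401, 958 and 1667 in EPZ, 969 and 2490.01 in MI, and 163 and 201 in iBET. Gpnmb had the highest mean of these over all libraries but not in DMSO. Of these macrophage genes 7 of 8 rose with EPZ and with MI, and with iBET 1 rose and 1 fell. The 10 myeloid progenitor genes were detected in every group and summed to 11482 and 14499 TMM CPM in DMSO, 12925 and 13583 in MM-401, 6885 and 8001 in EPZ, 6948 and 7008 in MI, and 8724 and 7718 in iBET. With EPZ 4 of these progenitor genes rose and 4 fell, with MI 4 rose and 5 fell, and with iBET 1 rose and 2 fell. Elane, which encodes neutrophil elastase, had the highest mean of these genes over all libraries, but not the highest level in each group. The libraries are from bulk cells, so fewer cells of a type and less RNA per cell cannot be told apart for any gene described here.

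**Figure D1:**
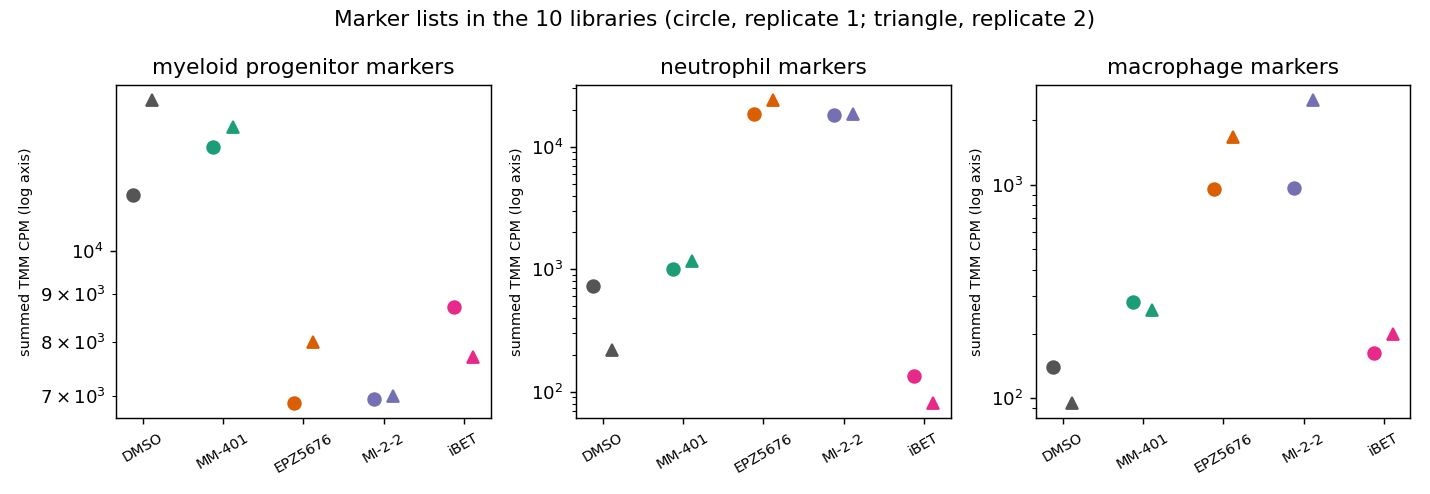
Summed TMM CPM (log axis) of the myeloid progenitor, neutrophil and macrophage lists in each of the 10 libraries, with circles for replicate 1 and triangles for replicate 2 of each group on the horizontal axis. The neutrophil sums of EPZ and MI lie between 18131 and 24042 TMM CPM, above all 6 other libraries, the highest of which is at 1159.

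Marker lists of other lineages had few reads, and these reads do not show that cells of those lineages were present. Nkg7 had the highest mean of the lymphoid list and was at 65.7 TMM CPM in DMSO replicate 2. Pecam1 had the highest mean of the stroma and endothelium list, at 23.1 and 43.7 TMM CPM in DMSO. Of the megakaryocyte list 6 genes were tested, and 4 were called higher with EPZ and 4 with MI, while 1 fell with iBET. Gp1bb and Ppbp passed the filter only through the EPZ and MI libraries where they were high, and of the other 4 genes 2 rose with EPZ and 2 with MI. Its sum was 5.37 and 2.88 TMM CPM in DMSO, 7.86 and 6.68 in MM-401, 34.4 and 48.3 in EPZ, 30.1 and 74.0 in MI, and 1.28 and 1.45 in iBET, and Vwf had the highest mean over all libraries. Of the lymphoid list 4 were tested: 2 were called higher with EPZ, 1 higher and 1 lower with MI, and 2 lower with iBET. Cd3d and Cd79a passed the filter only through EPZ and MI, and of the other 2 genes 1 rose with EPZ, 1 fell with MI and 2 fell with iBET. The T cell gene Cd3e and the B cell gene Ms4a1 had no read in any library. For the erythroid list 2 genes were tested and edgeR called 0 in each comparison with DMSO (0 at an unadjusted p under 0.05 and 0 by DESeq2), and Hbb-b1 and Hba-a1 had no read. The mast cell list had 2 tested genes, 1 of which fell with EPZ and 1 with MI, and Tpsb2, Cma1, Gzmb and Prss34 had no read. For stroma and endothelium 2 genes were tested, with 1 rising and 1 falling with EPZ and with MI and 1 falling with iBET, and Col1a2, Col3a1, Dcn and Lum had no read. Of the sex-linked list 1 gene, Xist, was tested and edgeR called 0 in each comparison with DMSO (0 at an unadjusted p under 0.05), while DESeq2, which tested more of the list, called 4 with EPZ, 3 with MI, 4 with iBET and 4 with MM-401. With MM-401 edgeR called 0 genes of each marker list and 0% of all tested genes. At an unadjusted p under 0.05 there were 5 neutrophil, 3 macrophage, 2 progenitor and 1 lymphoid genes with MM-401, where 1450 of 12971 genes were. DESeq2 called 3, 1, 2 and 0 genes of these lists, and its count over all genes is given below with the TALE genes.

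The marker counts moved with the DMSO library used, most of all for MM-401, and are given for the genes tested with all libraries. Without DMSO replicate 1, 6 of the 8 neutrophil genes were called higher with MM-401 (median 2.31), 3 progenitor genes were higher, 1 macrophage gene was higher and 1 lower, 1 mast cell and 1 megakaryocyte gene were higher, and 1 lymphoid gene was lower. Without DMSO replicate 2 edgeR called 0 genes of each list with MM-401 (neutrophil median 0.89). The count of 0 with MM-401 thus held with DMSO replicate 1 in the fit and not without it. With EPZ and MI all 8 neutrophil genes were called higher without either DMSO library, with medians of 6.36 and 5.34 for EPZ and of 6.96 and 6.045 for MI. With iBET 2 neutrophil genes were called lower without DMSO replicate 1 (median -0.38) and 6 without replicate 2 (median -1.89). Of the macrophage genes 6 were higher without DMSO replicate 1 and 8 without replicate 2, with EPZ as with MI, and with iBET 2 were higher and 2 lower, or 1 and 1. The progenitor counts with EPZ and MI stayed at 4 and 4 and at 4 and 5, and those with iBET were 2 higher and 2 lower, or 0 and 2. For the megakaryocyte list 5 were higher without DMSO replicate 1 and 3 without replicate 2, with EPZ as with MI, and with iBET 0 and 1 were lower. For the lymphoid list 2 were higher and 1 lower, or 2 and 0, with EPZ, 1 and 1, or 1 and 0, with MI, and 2 lower in both cases with iBET. Of the mast cell genes 1 and 2 were lower with EPZ and with MI, and 0 and 1 with iBET. Of stroma and endothelium 1 was higher and 1 lower in both cases with EPZ and with MI, and 1 was lower with iBET. Of the erythroid genes 0 were called in either case. Of the sex-linked genes Xist was called higher with each inhibitor without DMSO replicate 1, and lower with EPZ and MI without replicate 2.

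Per unit of transcript length the 9 genes differed widely in level. Length-scaled levels (TMM RPKM, TMM CPM divided by the joined length of all exons in kilobases) in DMSO were 15.5 ± 2.22 for Pbx2 (SD, n = 2) and 10.5 ± 0.994 for Pknox1. Next came Meis1 at 6.00 ± 3.59 TMM RPKM, Pbx3 at 5.89 ± 2.01 and Tgif1 at 4.58 ± 0.104. The DMSO libraries of these last genes overlapped in TMM RPKM, so Meis1, Pbx3 and Tgif1 had no clear order there. Tgif2 at 0.783 TMM RPKM and Pbx4 at 0.639 were lower, and Meis3 at 0.0897 and Meis2 at 0.0862 were the lowest. In EPZ the level per length was 29.2 TMM RPKM for Pbx2, 9.15 for Pknox1, 4.38 for Pbx3, 1.50 for Tgif1, 0.668 for Tgif2 and 0.481 for Meis3, with Meis1 at 0.117 and Pbx4 at 0.107. The MI means were 33.1 TMM RPKM for Pbx2, 9.62 for Pknox1, 2.24 for Pbx3, 1.74 for Tgif1, 0.630 for Tgif2, 0.429 for Meis3, 0.0846 for Meis1 and 0.0818 for Pbx4. In EPZ and in MI Meis1 thus lay below Tgif2 and Meis3 in TMM RPKM, and its range overlapped that of Pbx4. In MM-401 Meis1 was at 3.67 TMM RPKM, behind Pbx2 (16.0), Pknox1 (11.3) and Pbx3 (5.01) and next to Tgif1 (3.15), whose libraries overlapped those of Meis1. With iBET it was at 5.11 TMM RPKM, behind Pbx2 (14.8), Pknox1 (12.5) and Pbx3 (5.56).

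**Figure D2:**
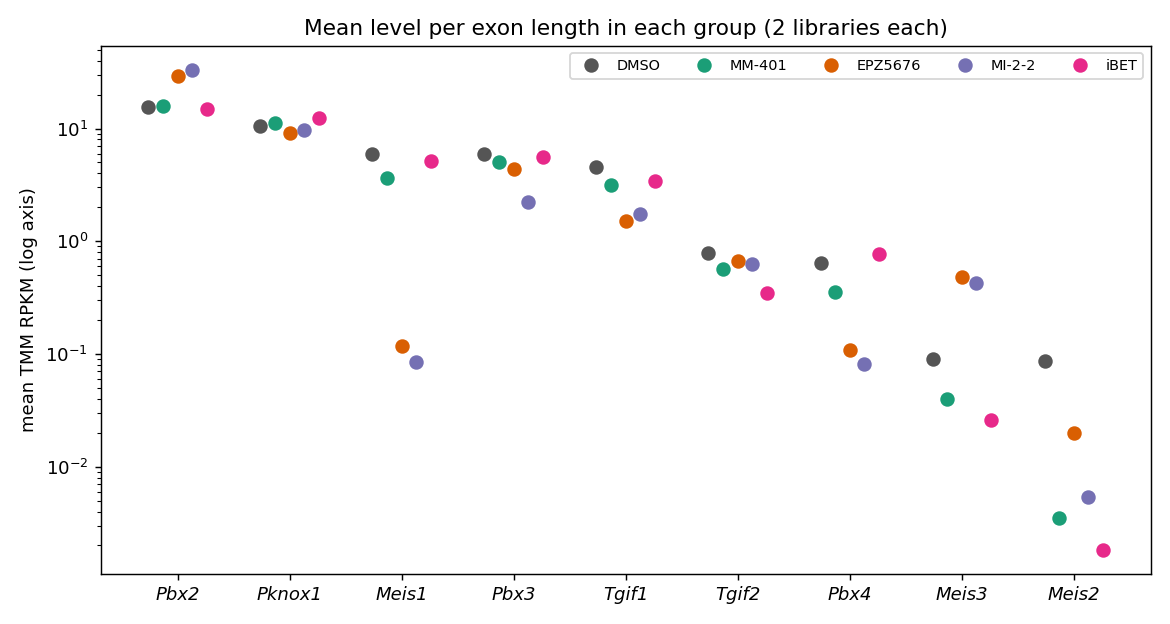
Mean TMM RPKM (log axis) of each of the 9 genes in each group, with genes on the other axis in the order of their DMSO level. Pbx2 is the highest gene in every group, from 14.8 in iBET to 33.1 in MI, and Meis1 drops from 6.00 in DMSO to 0.117 in EPZ and 0.0846 in MI.

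The number of TALE genes called differed between inhibitors. With EPZ 5 of the 8 tested genes were called against DMSO, Meis3 and Pbx2 higher and Meis1, Pbx4 and Tgif1 lower, where 38.1% of all tested genes were called (18.7% higher and 19.4% lower), or 4 of 7 apart from Meis3. With MI 5 were called, Pbx2 higher and Meis1, Pbx3, Pbx4 and Tgif1 lower, where 41.4% of all genes were (20.2% higher and 21.2% lower). With iBET 1 was called, Tgif2 lower, where 13.9% of all genes were (6.38% higher and 7.54% lower). With MM-401 against DMSO edgeR called 0 of the 8 genes and 0% of all genes, with 1 TALE gene (Tgif1) and 1450 genes in all at an unadjusted p under 0.05, and DESeq2 called 0 TALE genes and 297 genes in all. Because the filter kept Meis3 only through the groups where it was high, its call supports nothing here, and these counts are not a share of the 9 genes. Pbx4 was likewise kept only through the DMSO, MM-401 and iBET libraries, where it was high. Its calls with EPZ and MI are therefore descriptions too, and the counts apart from Meis3 still include it.

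**Figure D3:**
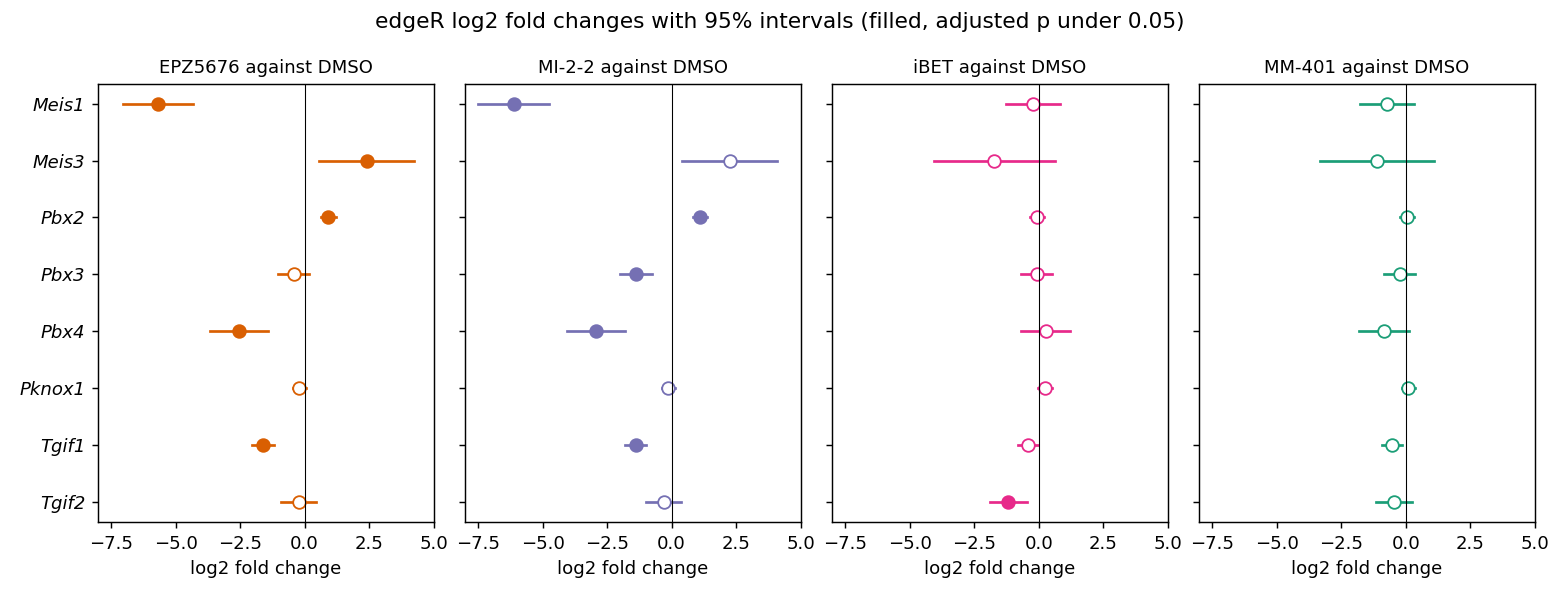
Log2 fold change against DMSO with its 95% interval for the 8 tested genes in the comparisons of EPZ, MI, iBET and MM-401, filled where the adjusted p was under 0.05. Meis1 has the largest differences, -5.67 with EPZ and -6.12 with MI, and Pknox1 is not filled in any comparison.

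Scaling bears on the balance of rises and falls. Scaling by total counts instead of TMM moved the median log2 fold change of all tested genes by -0.169 for EPZ against DMSO and by -0.151 for MI against DMSO. The share of calls that were higher then went from 49.2% to 34.7% for EPZ and from 48.9% to 37.1% for MI. Against MM-401 the shift was -0.145 for EPZ and -0.125 for MI, and the share of higher calls went from 50.3% to 35.5% and from 50.6% to 37.8%. No called TALE gene changed direction under either scaling, and differences below are relative to TMM scaling.

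The MEIS genes encode the partners that bind DNA next to PBX and HOX proteins. Meis1, the member best known in leukemia, was at 36.4 and 89.9 TMM CPM in DMSO, at 34.0 and 43.2 in MM-401, at 0.679 and 1.79 in EPZ, at 0.650 and 1.13 in MI, and at 51.0 and 56.7 in iBET. The EPZ and MI libraries lay far below all others and overlapped each other, while the iBET libraries lay above those of MM-401 and within the range of DMSO. In reads, Meis1 had 936 and 1875 in DMSO and 14, 38, 15 and 31 in the EPZ and MI libraries. With EPZ Meis1 fell by 5.67 on the log2 scale (SE 0.59, 95% interval -7.02 to -4.32, edgeR adjusted p = 0.000705), 50.8-fold. With MI it fell by 6.12 (SE 0.60, 95% interval -7.50 to -4.74, edgeR adjusted p = 0.00061), 69.6-fold. The log2 differences without DMSO replicate 1 were -6.17 with EPZ and -6.62 with MI, and without DMSO replicate 2, the library with the higher Meis1 level, they were -4.85 and -5.29. The EPZ difference was -5.13 without EPZ replicate 1 and -6.52 without EPZ replicate 2. The MI difference was -5.79 without MI replicate 1 and -6.58 without MI replicate 2. The iBET difference was -0.23 (95% interval -1.27 to 0.81) and that of MM-401 was -0.71 (95% interval -1.76 to 0.34, edgeR adjusted p = 0.617), and neither was called. For MM-401 the value was -1.21 without DMSO replicate 1 and 0.07 without replicate 2, so its sign depended on 1 control library, and for iBET it was -0.73 and 0.56. In the same EPZ and MI libraries the neutrophil and macrophage lists were higher, and their part in the result was not tested.

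**Figure D4:**
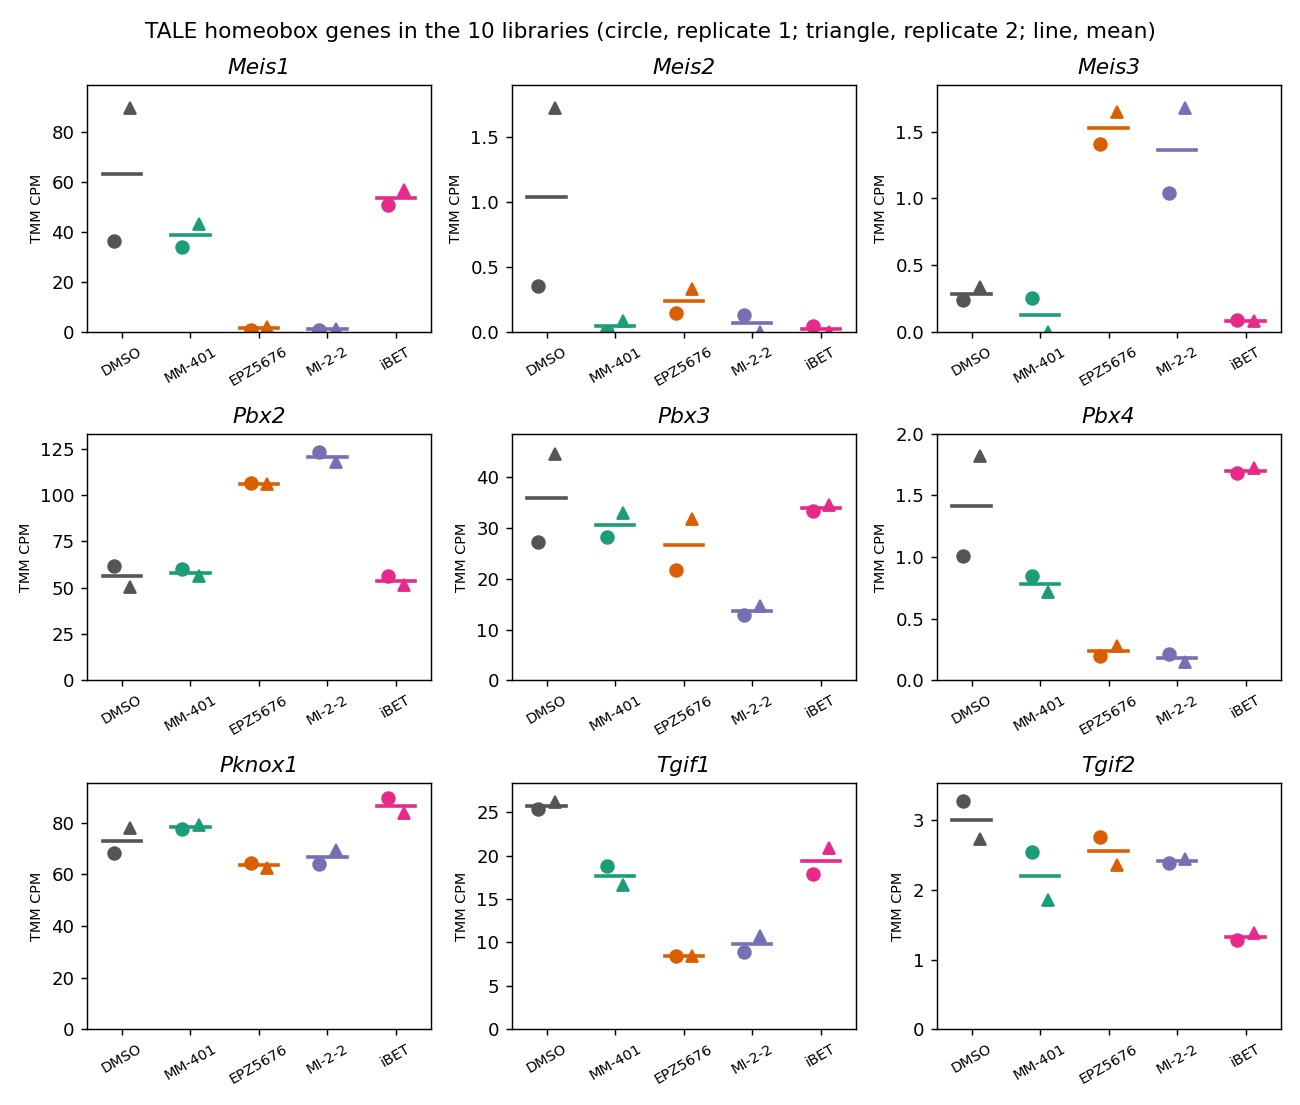
TMM CPM of each of the 9 genes, 1 panel per gene, in every library by group, with circles for replicate 1, triangles for replicate 2 and a line at the mean. In the Meis1 panel the EPZ and MI libraries lie between 0.650 and 1.79 TMM CPM and the other 6 between 34.0 and 89.9.

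Promoter sequences from RefSeq (build GRCm38.p6, not the build of the deposited counts) are shown for genes whose levels differed most between groups or that share a motif. RefSeq promoters were found for 7 of the 9 genes, 11 promoters in all, each reaching from 250 bases before to 50 bases after a start. The 100 bases before the start of Meis1 lie at chr11:19018970-19019069 on the minus strand and those of Meis3 at chr7:16175295-16175394 on the plus strand. Capitals mark the CCAAT box and the reverse complement of the motif CCGGAAGT.
Meis1: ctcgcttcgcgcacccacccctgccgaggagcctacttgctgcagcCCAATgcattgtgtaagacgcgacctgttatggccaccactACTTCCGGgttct
Meis3: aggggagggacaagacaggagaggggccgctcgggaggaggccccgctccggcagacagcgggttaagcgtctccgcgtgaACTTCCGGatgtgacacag
The motifs searched on both strands were the CCAAT box, the ETS-type motif CCGGAAGT, the MEIS-type motif TGACAG and the PBX-HOX-type motif TGATTNAT, and none of them contains another. CCGGAAGT was in 3.89% of 32851 RefSeq promoters of this length and, among the TALE genes, in those of Meis1 and Meis3. CCAAT was in 37.4% of all promoters and in those of Meis1, Meis2, Pbx4 and Tgif1. Tgif1 also held TGACAG, found in 19.2% of promoters, and TGATTNAT, found in 3.22%. These matches only describe the letters in the window.

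Meis3, unlike Meis1, was highest in the EPZ and MI libraries, and its counts were low in every group. It had 6 and 7 reads in DMSO, 6 and 0 in MM-401, 29 and 35 in EPZ, 24 and 46 in MI, and 2 and 2 in iBET. As TMM CPM these were 0.234 and 0.336 in DMSO, 1.41 and 1.65 in EPZ, and 1.04 and 1.68 in MI. All 4 EPZ and MI libraries lay above the other 6, and EPZ and MI overlapped each other. The fitted difference of Meis3 with EPZ was 2.41 on the log2 scale (SE 0.80, 95% interval 0.58 to 4.25, edgeR adjusted p = 0.0450). The filter kept the gene only because these counts were high, so this is a description, and without the filter edgeR's adjusted p was 0.0498. The call was lost in 6 of 10 alternatives, with adjusted p-values from 0.0311 to 0.158 over them: without DMSO replicate 1 (2.17, edgeR adjusted p = 0.0848), without DMSO replicate 2 (2.71, edgeR adjusted p = 0.0590), without either EPZ library, in a fit of the 4 libraries compared (0.0618) and with total-count scaling (0.0517). With MI the difference of 2.25 (95% interval 0.42 to 4.08) missed the threshold (edgeR adjusted p = 0.0522, range over alternatives 0.0384 to 0.224), and it was 2.01 without DMSO replicate 1 and 2.55 without replicate 2. It was called in 3 of 10 alternatives: DESeq2, edgeR with DESeq2 size factors, and a fit with the replicate numbers as a block. Without the filter edgeR's adjusted p was 0.0591. The iBET difference was -1.72 (-1.96 without DMSO replicate 1 and -1.45 without replicate 2) and that of MM-401 -1.12 (-1.37 and -0.87), none of them called, with few reads in either group. Without MM-401 replicate 1 the MM-401 difference was -5.76. Without MM-401 replicate 2, the library with no Meis3 read, it was -0.15.

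Meis2 was close to the detection limit. Its reads were 9 and 36 in DMSO, 0 and 2 in MM-401, 3 and 7 in EPZ, 3 and 0 in MI, and 1 and 0 in iBET. DMSO replicate 2 alone held 36 of the 45 DMSO reads, and every treated library was below both DMSO libraries. A floor of 3 reads corresponds to between 0.110 and 0.146 TMM CPM per library. Relative to the pooled DMSO reads, Meis2 was 4.05-fold lower in EPZ (exact 95% interval 2.01 to 9.01), 16.3-fold lower in MI (5.22 to 81.8), 22.9-fold lower in MM-401 (5.99 to 195) and 47.1-fold lower in iBET (8.04 to 1903). Relative to DMSO replicate 1 alone these ratios were 1.47 for EPZ (0.527 to 4.02), 5.89 for MI (1.47 to 33.8), 8.32 for MM-401 (1.72 to 79.1) and 17.1 for iBET (2.37 to 749). These intervals cover counting error only and not the spread between cultures. In a fit of all libraries without the filter, edgeR's adjusted p for Meis2 was 0.209 with EPZ, 0.0442 with MI, 0.0556 with iBET and 0.366 with MM-401, and that of DESeq2 was 0.347, 0.0669, 0.0460 and 0.250, so that no comparison was called by both. Meis2 passed the filter without DMSO replicate 1 only through DMSO replicate 2, where it was highest, so nothing is drawn from its tests there.

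The PBX genes encode the homeodomain partners that contact HOX proteins directly. Pbx2, the most abundant of the 9 per length, was at 62.0 and 50.5 TMM CPM in DMSO, at 60.2 and 56.0 in MM-401, at 107 and 106 in EPZ, at 123 and 118 in MI, and at 56.1 and 51.4 in iBET. Both MI libraries lay above both EPZ libraries, and these 4 above all the others, which overlapped. Pbx2 rose with EPZ by 0.92 on the log2 scale (SE 0.12, 95% interval 0.63 to 1.20, edgeR adjusted p = 0.00159), 1.89-fold, and with MI by 1.10 (95% interval 0.81 to 1.39, edgeR adjusted p = 0.000873), 2.14-fold. The EPZ and MI differences were 1.07 and 1.26 without DMSO replicate 1, and without DMSO replicate 2 they were 0.80 and 1.00. In a fit of only the 4 libraries compared, the EPZ call was lost (edgeR adjusted p = 0.0504). The differences with iBET (-0.07, 95% interval -0.35 to 0.22) and MM-401 (0.05, 95% interval -0.24 to 0.33) were not called, and they were 0.09 and 0.21 without DMSO replicate 1 and -0.21 and -0.11 without replicate 2. Pbx2 shares 227 exon bases with Gpsm3 on the same strand in GENCODE M21, and Gpsm3, a regulator of G protein signalling, was itself higher with EPZ (log2 fold change 1.51, edgeR adjusted p = 0.00063) and MI (1.59, edgeR adjusted p = 0.00061). Gpsm3 was at 63.1 and 64.4 TMM CPM in DMSO, 157 and 205 in EPZ and 178 and 206 in MI, and the assignment of reads in the shared bases was not stated in these sources. The 100 bases before the start of Pbx2 lie at chr17:34592159-34592258 on the plus strand of GRCm38.p6 (RefSeq) and, shown because Pbx2 was the gene called higher with both inhibitors, hold none of the searched motifs and so no capitals.
Pbx2: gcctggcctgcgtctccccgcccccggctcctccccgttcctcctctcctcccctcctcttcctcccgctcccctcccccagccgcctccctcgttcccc

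Pbx3, a PBX protein known as a partner of HOXA9 and MEIS1 in leukemia, was lower in MI than in any other group. Its level was 27.3 and 44.6 TMM CPM in DMSO, 28.2 and 33.0 in MM-401, 21.8 and 31.7 in EPZ, 12.9 and 14.5 in MI, and 33.4 and 34.6 in iBET. Both MI libraries lay below the other 8, and the EPZ range overlapped those of DMSO and MM-401. With MI Pbx3 fell by 1.39 on the log2 scale (SE 0.27, 95% interval -2.01 to -0.77, edgeR adjusted p = 0.00547), 2.62-fold. The value was -1.70 without DMSO replicate 1 and -0.96 without DMSO replicate 2, both called, and the call was lost in a fit of only the 4 libraries compared (edgeR adjusted p = 0.0581, range over alternatives 3.11e-05 to 0.0581). With EPZ the difference was -0.43 (95% interval -1.03 to 0.18) and not called (edgeR adjusted p = 0.229, range over alternatives 0.0267 to 0.982). It was -0.74 and called without DMSO replicate 1 (edgeR adjusted p = 0.0267) and -0.01 without DMSO replicate 2. With iBET it was -0.08 (-0.39 without DMSO replicate 1 and 0.31 without replicate 2) and with MM-401 -0.23 (-0.54 and 0.15), and none of these was called.

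Pbx4, a PBX gene best known from testis, was a low transcript that fell with the same 2 inhibitors as Meis1. The filter kept it only through the DMSO, MM-401 and iBET libraries, where it was high, so its EPZ and MI differences are a description. Without the filter edgeR also called Pbx4 with EPZ and with MI. Its reads were 26 and 38 in DMSO, 20 and 17 in MM-401, 4 and 6 in EPZ, 5 and 4 in MI, and 38 and 45 in iBET. As TMM CPM Pbx4 was at 1.01 and 1.82 in DMSO, 0.845 and 0.714 in MM-401, 0.194 and 0.282 in EPZ, 0.217 and 0.146 in MI, and 1.68 and 1.72 in iBET. The EPZ and MI libraries lay below all others, the MM-401 libraries below both DMSO libraries, and the iBET libraries within the DMSO range. With EPZ Pbx4 fell by 2.54 on the log2 scale (SE 0.48, 95% interval -3.65 to -1.43, edgeR adjusted p = 0.00552), 5.81-fold, and with MI it fell by 2.94 (SE 0.49, 95% interval -4.06 to -1.81, edgeR adjusted p = 0.00304), 7.65-fold. When DMSO replicate 1 was left out these differences were -2.90 and -3.30, and without DMSO replicate 2 they were -2.04 and -2.43, all called. Both calls were lost in fits of only the 4 libraries compared (edgeR adjusted p = 0.0716 for EPZ and 0.0564 for MI, the highest over the alternatives). The MM-401 difference of -0.85 (95% interval -1.83 to 0.13) and the iBET difference of 0.27 (95% interval -0.67 to 1.21) were not called. They were -1.21 and -0.09 without DMSO replicate 1 and -0.39 and 0.74 without replicate 2, not called either.

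**Figure D5:**
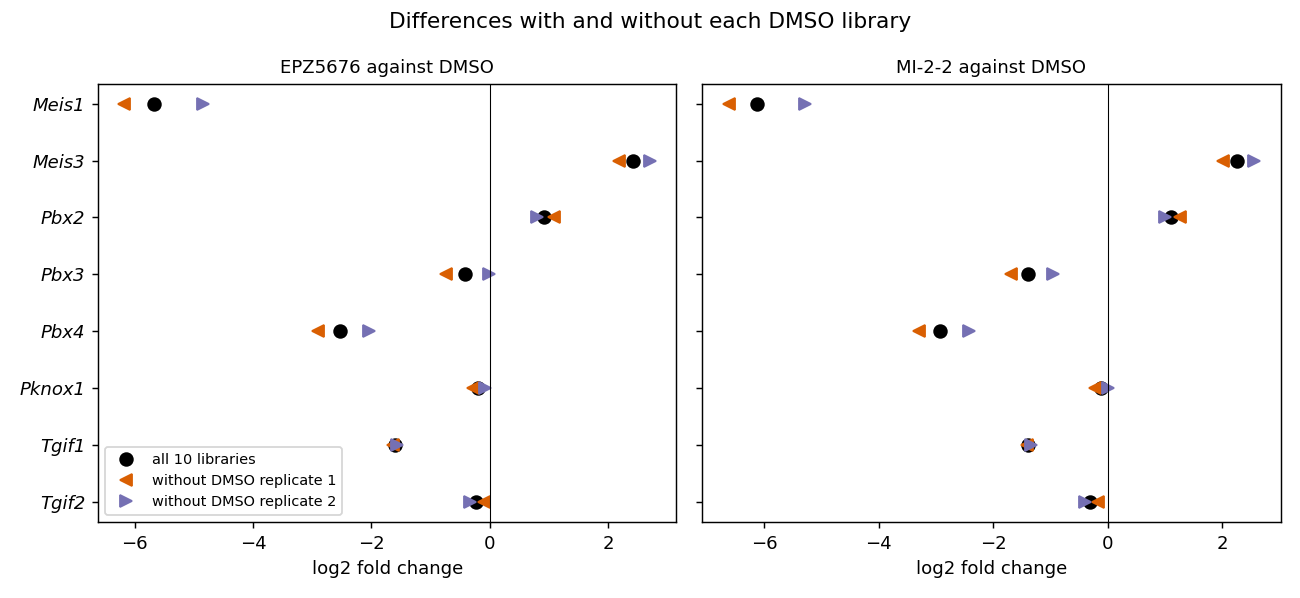
Log2 fold change of the 8 tested genes with EPZ and with MI against DMSO, from all 10 libraries, without DMSO replicate 1 and without DMSO replicate 2. Meis1 ranges from -6.17 to -4.85 with EPZ and from -6.62 to -5.29 with MI, and Pbx3 with EPZ from -0.74 to -0.01.

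Pknox1, also called Prep1, encodes a PBX partner that is made in most tissues. It was at 68.1 and 77.8 TMM CPM in DMSO, at 77.6 and 79.2 in MM-401, at 64.5 and 62.4 in EPZ, at 64.0 and 69.4 in MI, and at 89.5 and 83.6 in iBET. The iBET libraries lay above the other 8 and the EPZ libraries below those of DMSO and MM-401, within a narrow range. The log2 differences from DMSO were -0.20 with EPZ (95% interval -0.46 to 0.05), -0.13 with MI (95% interval -0.38 to 0.13), 0.25 with iBET (95% interval -0.01 to 0.50) and 0.10 with MM-401 (95% interval -0.15 to 0.36), and none was called by edgeR. The values without DMSO replicate 1 were -0.29, -0.22, 0.16 and 0.01 in the same order, and without replicate 2 they were -0.08, 0.01, 0.35 and 0.19, so that the sign with MI turned, and none of them was called. With total-count scaling Pknox1 was called lower with EPZ (-0.37, edgeR adjusted p = 0.0239, range over alternatives 0.0239 to 0.616).

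The TGIF genes encode repressors that bind SMAD proteins and corepressors. Tgif1 was at 25.4 and 26.2 TMM CPM in DMSO, at 18.8 and 16.6 in MM-401, at 8.49 and 8.38 in EPZ, at 8.85 and 10.8 in MI, and at 17.9 and 20.9 in iBET. DMSO was the highest group without overlap, MM-401 and iBET overlapped in the middle, and both MI libraries lay just above both EPZ libraries. The DMSO libraries, which differed for many genes, were close for Tgif1. With EPZ Tgif1 fell by 1.61 on the log2 scale (SE 0.18, 95% interval -2.02 to -1.20, edgeR adjusted p = 0.000824), 3.05-fold, and with MI it fell by 1.39 (SE 0.17, 95% interval -1.80 to -0.99, edgeR adjusted p = 0.00114), 2.62-fold. Both calls held in all 10 alternatives, and without DMSO replicate 1 the values were -1.63 and -1.41 and without replicate 2 they were -1.56 and -1.33. With MM-401 the difference was -0.54 (95% interval -0.94 to -0.15, edgeR adjusted p = 0.336) and with iBET -0.41 (95% interval -0.80 to -0.01, edgeR adjusted p = 0.144), and both missed the threshold after adjustment. They were -0.56 and -0.43 without DMSO replicate 1 and -0.53 and -0.39 without replicate 2, not called either.

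Tgif2, a low transcript, had its lowest levels in iBET. It was at 3.27 and 2.73 TMM CPM in DMSO, at 2.54 and 1.85 in MM-401, at 2.77 and 2.35 in EPZ, at 2.38 and 2.45 in MI, and at 1.28 and 1.38 in iBET. Both iBET libraries lay below the other 8, the MM-401 and MI libraries also lay below both DMSO libraries, and the EPZ range overlapped those of DMSO, MM-401 and MI. With iBET Tgif2 fell by 1.17 on the log2 scale (SE 0.31, 95% interval -1.88 to -0.46, edgeR adjusted p = 0.0430), 2.25-fold. The call was lost in 5 of 10 alternatives, with adjusted p-values from 0.0217 to 0.212: without DMSO replicate 1 (-1.03, edgeR adjusted p = 0.0552), without iBET replicate 1 (0.212), without iBET replicate 2 (0.187), without the count filter (0.0655) and in a fit of only the 4 libraries compared (0.201). Without DMSO replicate 2 the difference was -1.30 and called (edgeR adjusted p = 0.0305). The differences with EPZ (-0.23, 95% interval -0.92 to 0.46), MI (-0.31, SE 0.30) and MM-401 (-0.45, 95% interval -1.14 to 0.24) were not called. They were -0.09, -0.17 and -0.31 without DMSO replicate 1 and -0.33, -0.40 and -0.59 without replicate 2, not called either. Tgif2 shares 2171 exon bases with 5430405H02Rik on the opposite strand, and since the use of strand in counting is not given in the sources used here, reads of these genes cannot be told apart. The antisense gene had 297 reads in all, and its iBET difference was -0.30 (edgeR adjusted p = 0.672).

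The comparisons between inhibitors contrasted no DMSO library, although the DMSO libraries entered the shared estimate of spread. Against MM-401, EPZ gave 5 called TALE genes of 8, Meis3 and Pbx2 higher and Meis1, Pbx4 and Tgif1 lower, where 33.3% of all tested genes were called (16.7% higher and 16.6% lower). MI against MM-401 gave 6 of 8, these 5 and Pbx3 lower, where 35.7% of all genes were called (18.0% higher and 17.6% lower). Meis3 was among the tested genes only through its EPZ and MI counts, and apart from it 4 of 7 were called for EPZ and 5 of 7 for MI. These counts still include Pbx4, which was tested only through its DMSO, MM-401 and iBET counts. These comparisons share the MM-401 libraries. Meis1 was lower than in MM-401 by -4.96 on the log2 scale in EPZ (SE 0.57, edgeR adjusted p = 0.00143), 31.1-fold, and by -5.41 in MI (edgeR adjusted p = 0.00131), 42.6-fold. Its EPZ value was -4.43 without EPZ replicate 1 and -5.82 without EPZ replicate 2. The MI value was -5.08 without MI replicate 1 and -5.88 without MI replicate 2. Pbx2 was higher by 0.87 in EPZ (edgeR adjusted p = 0.00257) and by 1.05 in MI (edgeR adjusted p = 0.00157). Tgif1 differed from MM-401 by -1.07 in EPZ (edgeR adjusted p = 0.00401) and by -0.85 in MI (edgeR adjusted p = 0.00817), and the MI call was lost without MI replicate 1 (0.0578) and without MM-401 replicate 1 (0.0655, the highest over the alternatives). The neutrophil and macrophage lists were also higher in EPZ and MI than in MM-401, and their part in these results was not tested.

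The lower transcripts gave less firm differences from MM-401. The fitted differences of Meis3, again a description of a gene kept by its EPZ and MI counts, were 3.54 in EPZ (edgeR adjusted p = 0.0179, range over alternatives 0.00321 to 0.0766) and 3.38 in MI (edgeR adjusted p = 0.0199, range 0.00477 to 0.101), and without the filter edgeR's adjusted p was 0.0171 and 0.0193. The Meis3 calls were lost without MM-401 replicate 2, the library with no Meis3 read (values of 2.56 in EPZ and 2.40 in MI). They were also lost without either EPZ library (3.65 and 3.42) and without either MI library (3.68 and 2.99). Without MM-401 replicate 1 the values were 8.17 in EPZ and 8.01 in MI, set against a library with no Meis3 read. Pbx4 differed by -1.69 in EPZ (edgeR adjusted p = 0.0316, range 0.0191 to 0.157) and by -2.08 in MI (edgeR adjusted p = 0.0143). This too describes a gene kept only by its DMSO, MM-401 and iBET counts. Leaving out any of the 4 libraries compared ended the Pbx4 call, with adjusted p-values of 0.0887 to 0.157 for EPZ and 0.0531 to 0.102 for MI, and DESeq2 did not make the EPZ call (0.0825). Pbx3 differed by -1.16 in MI (edgeR adjusted p = 0.0129), a call lost without MM-401 replicate 2 (0.0826, the highest over the alternatives) and without either MI library (0.0768 and 0.0580). Pknox1 differed from MM-401 by -0.31 in EPZ (edgeR adjusted p = 0.0651) and by -0.23 in MI (edgeR adjusted p = 0.133), with ranges over alternatives of 0.0126 to 0.237 and 0.0280 to 0.417, and with total-count scaling these were -0.45 and -0.36 and both were called. A fit with the replicate numbers as a block also called the EPZ difference of Pknox1, but not that of MI.

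Between iBET and MM-401 edgeR called 0 of the 8 TALE genes, where 11.4% of all tested genes were called (5.48% higher and 5.96% lower). At an unadjusted p under 0.05 there were 2 TALE genes, where 3567 of 12971 genes were, and DESeq2 called 0 TALE genes. Those 2 were Pbx4, higher in iBET by 1.12 (95% interval 0.15 to 2.09, edgeR adjusted p = 0.130), and Tgif2, with a difference of -0.72 (95% interval -1.43 to -0.01, edgeR adjusted p = 0.176). In both cases the libraries of the groups did not overlap. A fit of only the 4 libraries compared called 4223 of 12064 genes, against 1484 of 12971 in the fit of all libraries, and among them Meis1 (0.48, edgeR adjusted p = 0.0363, range over alternatives 0.0363 to 0.840) and Pbx4 (1.12, edgeR adjusted p = 0.0310, range 0.0310 to 0.456), both higher in iBET. Between MI and EPZ edgeR also called 0 of the 8 TALE genes, where 0.0154% of all tested genes were called (0.00771% higher and 0.00771% lower). At an unadjusted p under 0.05 there was 1 TALE gene, where 937 of 12971 genes were, and DESeq2 called 0 TALE genes. That gene was Pbx3, with a difference of -0.96 (95% interval -1.58 to -0.35, edgeR adjusted p = 0.410), and both MI libraries lay below both EPZ libraries. Between MI and EPZ the interval was -1.89 to 0.98 for Meis1, -0.10 to 0.47 for Pbx2 and -0.18 to 0.62 for Tgif1.

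HOX genes encode the proteins with which the TALE factors bind DNA, and of 39 HOX genes listed 13 were tested, most of them from the A cluster. With EPZ 3 of the 13 were called, all lower, where 38.1% of all tested genes were called and 19.4% were lower (median log2 fold change -0.71, against -0.06 over all tested genes). With MI 3 were called, all higher, where 41.4% were called and 20.2% were higher (median 0.59, against -0.05), or 2 of 12 apart from Hoxa13, which passed the filter only through MI. With iBET edgeR called 0 HOX genes (median 0.31), where 13.9% of all tested genes were called. At an unadjusted p under 0.05 there were 7 HOX genes, where 4178 of 12971 genes were, and DESeq2 called 5. With MM-401 edgeR also called 0 HOX genes (median 0.22, or 0.06 with genes of few reads at their bound), where 0% of all tested genes were called. At an unadjusted p under 0.05 there were 3 HOX genes, where 1450 of 12971 genes were, and DESeq2 called 3. The same shares stand behind the MM-401 counts of the lists below, and the DESeq2 calls over all genes are given in the closing section. Hoxa9, the HOX gene most tied to Meis1 in leukemia, was at 445 and 380 TMM CPM in DMSO, 376 and 397 in MM-401, 277 and 288 in EPZ, 401 and 363 in MI, and 519 and 506 in iBET. The EPZ libraries were the lowest and the iBET libraries the highest, with DMSO, MM-401 and MI overlapping in between. With EPZ Hoxa9 fell by 0.55 on the log2 scale (SE 0.13, edgeR adjusted p = 0.0117), and its difference with MI was -0.11 (edgeR adjusted p = 0.501). With EPZ also Hoxa4 fell by 1.21 (SE 0.35, edgeR adjusted p = 0.0290). With MI Hoxa5 rose by 1.11 (edgeR adjusted p = 0.00436) and Hoxa6 by 1.03 (edgeR adjusted p = 0.0122), and Hoxa13 went from 2 and 0 reads to 15 and 13, a ratio of 12.9 (exact 95% interval 3.26 to 112, counting error only). Relative to DMSO replicate 1 alone the Hoxa13 ratio was 7.13 (1.80 to 61.7, counting error only). Relative to replicate 2, which had no read, it was at least 3.86 at the floor of 3 reads. Hoxa13 had at most 3 reads in each library of the other groups, and its call was lost without DMSO replicate 2 (edgeR adjusted p = 0.101).

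The DMSO libraries were far apart for other HOX genes of the A cluster. Hoxa10 was at 305 and 125 TMM CPM in DMSO, 333 and 326 in MM-401, 129 and 141 in EPZ, 360 and 290 in MI, and 530 and 461 in iBET. Hoxa11 was at 189 and 18.5 TMM CPM in DMSO, 226 and 224 in MM-401, 56.6 and 58.0 in EPZ, 205 and 188 in MI, and 255 and 229 in iBET. For both genes DMSO replicate 2 lay at or below the EPZ libraries while DMSO replicate 1 lay near those of MM-401 and MI. Over the 13 HOX genes tested with all libraries, the calls without DMSO replicate 1 were 1 higher and 5 lower with EPZ, 7 higher and 2 lower with MI, 6 higher and 2 lower with iBET, and 4 higher and 1 lower with MM-401. Without DMSO replicate 2 they were 0 higher and 7 lower with EPZ, 2 higher and 0 lower with MI, 1 higher and 0 lower with iBET, and 0 and 0 with MM-401. Of all genes tested without DMSO replicate 1, 25.5% were called higher and 25.5% lower with EPZ, 27.0% and 26.9% with MI, 13.9% and 13.9% with iBET, and 5.96% and 4.28% with MM-401, and without replicate 2 these shares were 18.9% and 16.6%, 20.4% and 17.2%, 9.76% and 11.9%, and 0% and 0%. The same shares stand behind the counts of every other list without a DMSO library. The medians without DMSO replicate 1 and without replicate 2 were -0.25 and -0.715 with EPZ, 1.36 and 0.16 with MI, 0.98 and 0.135 with iBET, and 0.65 and -0.12 with MM-401. Against MM-401 5 HOX genes were called lower in EPZ, where 16.6% of all tested genes were. In MI edgeR called 0 HOX genes, where 35.7% of all tested genes were called, and DESeq2 called 0. In iBET edgeR called 0, where 11.4% of all tested genes were called, and DESeq2 called 1. At an unadjusted p under 0.05 there was 1 HOX gene in MI, where 6169 of 12971 genes were, and 1 in iBET, where 3567 were. Hoxa7 was at 25.1 and 51.0 TMM CPM in DMSO and between 20.3 and 35.3 in the treated libraries, and Hoxa3 at 44.5 and 14.0 in DMSO and between 9.93 and 58.2.

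Genes that have been linked to HOXA9 and MEIS1 moved in both directions. The shares of all tested genes called were 38.1% with EPZ, 41.4% with MI and 13.9% with iBET. Of 20 listed 17 were tested, and with EPZ 4 rose and 8 fell (median -0.91), with MI 4 rose and 7 fell (median -0.71), with iBET 3 fell (median -0.02) and with MM-401 edgeR called 0 (median 0.06), with 2 at an unadjusted p under 0.05 and 2 called by DESeq2. Myb, which encodes a regulator of progenitor growth, was at 687 and 953 TMM CPM in DMSO, 839 and 897 in MM-401, 271 and 274 in EPZ, 240 and 227 in MI, and 561 and 605 in iBET. The 4 EPZ and MI libraries lay below all others, and iBET below DMSO and MM-401. Myb fell by 1.59 on the log2 scale with EPZ (SE 0.17, edgeR adjusted p = 0.000787) and fell by 1.81 with MI (edgeR adjusted p = 0.00061). Cdk6, a cell cycle kinase, fell by 1.93 with EPZ (edgeR adjusted p = 0.00142) and fell by 1.67 with MI (edgeR adjusted p = 0.0021). Ccnd1, which encodes cyclin D1, rose with EPZ by 3.53 (edgeR adjusted p = 0.000704) and with MI by 2.77 (edgeR adjusted p = 0.00121), Erg rose with EPZ by 2.34 (edgeR adjusted p = 0.00063), and the growth factor gene Igf1 rose with MI by 5.86 (edgeR adjusted p = 0.00169). The MI difference of Igf1 was 7.92 without DMSO replicate 1 and 5.13 without replicate 2, both called. With iBET Erg, which encodes an ETS transcription factor, went from 7.75 and 5.27 TMM CPM to 0.133 and 0.115 and fell by 5.67 (SE 0.33, edgeR adjusted p = 0.000334). Also lower with iBET were Hlf, with 7 and 62 reads in DMSO and 1 and 0 in iBET (13.3-fold lower than DMSO replicate 1, exact 95% interval 1.71 to 599, and 145-fold lower than replicate 2, 25.1 to 5816), and Pf4, with 13 and 9 reads in DMSO and 1 and 2 in iBET (7.68-fold lower, exact 95% interval 2.31 to 40.1), where these intervals cover counting error only. The Pf4 call was lost without DMSO replicate 1 (edgeR adjusted p = 0.0808) and without DMSO replicate 2 (0.0629). Flt3, a receptor gene linked to MEIS1, had 1 and 29 reads in DMSO, 4 and 8 in MM-401, none in EPZ or MI, and 58 and 84 in iBET.

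The counts for this list also moved with the control library. Over the same 17 genes there were, without DMSO replicate 1, 5 higher and 10 lower with EPZ, 5 and 10 with MI, 2 and 4 with iBET, and 4 and 2 with MM-401. Without DMSO replicate 2 they were 5 and 6 with EPZ, 4 and 6 with MI, 3 and 2 with iBET, and 0 and 0 with MM-401. The medians without DMSO replicate 1 and without replicate 2 were -1.15 and -0.54 with EPZ, -1.09 and -0.585 with MI, -0.20 and 0.18 with iBET, and -0.006 and 0.32 with MM-401. Relative to MM-401, 5 were higher and 9 lower in EPZ, 3 and 8 in MI, and 0 and 3 in iBET, where of all tested genes 16.7% were higher and 16.6% lower in EPZ, 18.0% and 17.6% in MI, and 5.48% and 5.96% in iBET.

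Partners of the TGIF repressors and TGF-beta signalling genes were called in both directions with EPZ and MI. Of 16 listed 15 were tested: 3 rose and 1 fell with EPZ (median 0.27), 5 rose and 1 fell with MI (median 0.26), and 4 rose with iBET (median 0.35). Of all tested genes 18.7% were higher with EPZ, 20.2% with MI and 6.38% with iBET. Tgfbr2, a TGF-beta receptor gene, rose with EPZ by 1.81 (edgeR adjusted p = 0.000868) and with MI by 2.09 (edgeR adjusted p = 0.00061). Ski, a corepressor gene, rose by 1.09 with EPZ (edgeR adjusted p = 0.00222), by 1.60 with MI (edgeR adjusted p = 0.000676) and by 1.38 with iBET (edgeR adjusted p = 0.00398). The related Skil rose by 0.89 with EPZ (edgeR adjusted p = 0.00588) and by 1.34 with MI (edgeR adjusted p = 0.00121). Hdac2, which encodes a histone deacetylase, fell by 0.66 with EPZ (edgeR adjusted p = 0.00335) and fell by 0.72 with MI (edgeR adjusted p = 0.00228). With iBET the inhibitory SMAD gene Smad7 rose by 1.52 (edgeR adjusted p = 0.00984), Tgfb1 by 0.60 (edgeR adjusted p = 0.0142) and Smad4 by 0.63 (edgeR adjusted p = 0.0285). With MM-401 edgeR called 0 of the 15, with 3 at an unadjusted p under 0.05 and 0 called by DESeq2. Without DMSO replicate 1 the counts higher and lower were 5 and 1 with EPZ, 4 and 1 with MI, 7 and 0 with iBET and 2 and 0 with MM-401, and without DMSO replicate 2 they were 6 and 1, 6 and 1, 5 and 0, and 0 and 0. The medians were then 0.32 and 0.27 with EPZ, 0.38 and 0.535 with MI, 0.41 and 0.305 with iBET, and 0.10 and 0.04 with MM-401. Against MM-401 3 were higher and 2 lower in EPZ, 3 and 2 in MI, and 3 and 0 in iBET, beside 33.3%, 35.7% and 11.4% of all tested genes called.

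Among proteins that interact with PBX or MEIS factors 12 genes were listed and 10 tested. Beside the shares of all genes called, 38.1% with EPZ, 41.4% with MI and 13.9% with iBET, 3 rose and 3 fell with EPZ (median -0.08), with MI 4 rose and 1 fell (median 0.19), with iBET 2 rose (median 0.26), and with MM-401 edgeR called 0, with 1 at an unadjusted p under 0.05 and 1 called by DESeq2. Pbxip1, which encodes a PBX-binding protein, rose by 0.91 with EPZ (edgeR adjusted p = 0.00982), by 1.45 with MI (edgeR adjusted p = 0.00159) and by 1.23 with iBET (edgeR adjusted p = 0.00949). The coactivator gene Crtc2 rose by 0.73 with EPZ (edgeR adjusted p = 0.00264) and by 0.69 with MI (edgeR adjusted p = 0.00299), and the acetyltransferase gene Ep300 by 0.65 with EPZ (edgeR adjusted p = 0.0047) and by 0.65 with MI (edgeR adjusted p = 0.00446). Creb1 fell by 0.56 with MI (edgeR adjusted p = 0.0160), a call lost without DMSO replicate 2 (0.0817). Without DMSO replicate 1 the counts higher and lower were 3 and 4 with EPZ, 4 and 3 with MI, 3 and 1 with iBET and 1 and 0 with MM-401, and without DMSO replicate 2 they were 4 and 2, 4 and 0, 4 and 0, and 0 and 0. The medians were then -0.06 and -0.06 with EPZ, 0.11 and 0.165 with MI, 0.10 and 0.275 with iBET, and -0.005 and 0.14 with MM-401. Against MM-401 2 were higher and 3 lower in EPZ, 3 and 0 in MI, and 1 and 0 in iBET, beside the same 33.3%, 35.7% and 11.4%. Between MI and EPZ edgeR called 0 genes of each of these lists. At an unadjusted p under 0.05 there were 8 HOX genes, 3 genes linked to HOXA9 and MEIS1, 2 of the TGIF list and 3 interacting proteins, where 937 of 12971 genes were, and DESeq2 called 6, 1, 0 and 1. Among the calls against DMSO given above with an adjusted p for named genes of these lists, those not described as lost were also made without either DMSO library.

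Of the 8 other genes of the TALE superclass 2 were tested, Pknox2 and Irx5. Pknox2, the sister gene of Pknox1, had 4 and 15 reads in DMSO, 105 and 328 in EPZ, and 3 and 17 in MI. Pknox2 passed the filter only with the EPZ and MI libraries counted, so its EPZ difference is a description, as for Meis3. The fitted value with EPZ was 4.57 on the log2 scale (SE 1.09, edgeR adjusted p = 0.0134), 23.8-fold higher. It was 3.83 without DMSO replicate 1 and 6.01 without replicate 2. With MI, iBET or MM-401 edgeR called 0 of these 2 genes (0 at an unadjusted p under 0.05 and 0 by DESeq2). Irx5 was at 16.5 and 0.192 TMM CPM in DMSO, 24.4 and 27.9 in MM-401, 3.78 and 4.75 in EPZ, 34.0 and 37.9 in MI, and 36.2 and 26.7 in iBET, so that DMSO spanned the EPZ libraries. When DMSO replicate 1 was left out Irx5 was called higher with EPZ (4.44), MI (7.52), iBET (7.32) and MM-401 (7.06). Without DMSO replicate 2 it was called lower with EPZ (-1.93) and higher with MI (1.15) and iBET (0.93), and its MM-401 difference of 0.64 was not called. The direction of Irx5 with EPZ thus depended on the control library.

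Finally, the genes most like each called TALE gene were sought among 9941 tested genes with a mean of at least 5 TMM CPM, by Pearson's r of log2 CPM over the 10 libraries. These are descriptions without a test, since the libraries form 5 groups of 2. For Meis1 the 3 most alike were Isoc1 (r = 0.994), Rpp40 (r = 0.994) and Slc16a10 (r = 0.992), although Isoc1 spanned only 32.8 to 102 TMM CPM. For Meis3 they were Kcnn3 (r = 0.962), Rnf128 (r = 0.958) and Mettl9 (r = 0.956). Kcnn3, a potassium channel gene, had 16 and 3 reads in DMSO, 10 and 0 in MM-401, 722 and 637 in EPZ, 481 and 792 in MI, and 1 and 1 in iBET. Pbx2 was most like Cds2 (r = 0.996), Dgat1 (r = 0.994) and Ager (r = 0.994), the last of which lies 461 bases from Pbx2. For Pbx3 they were Lrr1 (r = 0.987), the spindle checkpoint gene Mad2l1 (r = 0.98) and A430005L14Rik (r = 0.972). Pbx4 was most like Polr2e (r = 0.99), Marc2 (r = 0.989) and Cd320 (r = 0.983). Tgif1 was most like C230091D08Rik (r = 0.989), Wdr70 (r = 0.983) and Fyttd1 (r = 0.981). For Tgif2 they were Cryz (r = 0.962), Sirt5 (r = 0.951) and Rprd1a (r = 0.944).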

How the data were processed

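The values were read counts per gene, deposited by the authors without normalization. The submitters' processing notes name TopHat2, Subread, DESeq and build mm9 without versions, and libraries were made with Illumina TruSeq from total RNA. Whether counting used strand is not given in the sources used here. Version 4.0.16 of the edgeR package under R 4.3.3 was used for testing (filterByExpr with a minimum count of 10, TMM, glmQLFit and glmQLFTest, 1 coefficient per group, all 10 libraries), with an adjusted p under 0.05. DESeq2 1.42.0 was an alternative, besides DESeq2 size factors, total-count scaling, no filter, fits of the 4 libraries compared, a replicate block and leaving out each library. The standard error was the log2 fold change divided by the square root of F. Gene lengths came from GENCODE M21. Meis2, and named genes with 1 to 3 reads in a group against DMSO, were given a ratio with an exact binomial interval. The lists were HOX partners, genes linked to HOXA9 and MEIS1, TGIF partners and TGF-beta signalling, PBX and MEIS interacting proteins, other TALE genes and cell type markers. Named from each list were up to 4 genes with the smallest adjusted p in each comparison with DMSO and HOX genes of the A cluster with a mean of at least 1 CPM. For each member called against DMSO the 3 genes with the highest correlation were named. The members and lists were chosen with earlier results of these data known. A few listed genes that these rules select are not reported here by name.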

Additional observations from a re-analysis of the deposited data

How the results depend on the processing

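Over 64 differences of the TALE genes (8 genes in 8 comparisons) and 636 values under alternatives, 591 kept their side of the threshold, 35 lost the call, 10 gained it and 0 called values reversed. For the number of TALE genes called, a fit of only the 4 libraries compared gave 2 for EPZ against DMSO, 3 for MI against DMSO, 0 for iBET against DMSO and 2 for iBET against MM-401. DESeq2 gave 2 for iBET against DMSO, or 1 over the 8 genes tested by edgeR, and 0 were called there without the filter. Of all genes, fits of the 4 libraries compared called 1174 for EPZ against DMSO, 1147 for MI against DMSO, 0 for iBET against DMSO and 4223 for iBET against MM-401. These fits had fewer samples. DESeq2 called 2856 for iBET against DMSO, 2313 for iBET against MM-401, 156 for MI against EPZ and 297 for MM-401 against DMSO. For MI against EPZ no filter gave 7 and total-count scaling 0. The cause was not tested.

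Leaving out 1 library, the number of TALE genes called lay between 4 and 6 for EPZ against DMSO, 5 and 6 for MI, 0 and 1 for iBET and 0 and 1 for MM-401. These counts take in Meis2 without DMSO replicate 1, where it passed the filter only through DMSO replicate 2. Over the 8 genes tested with all libraries the ranges were 4 to 5 for EPZ, 5 to 5 for MI, 0 to 1 for iBET and 0 to 0 for MM-401. Against MM-401 it lay between 3 and 4 for EPZ, 2 and 4 for MI and 0 and 0 for iBET, and for MI against EPZ between 0 and 0. Of all genes the range was 2639 to 6808 for EPZ against DMSO, 2772 to 7197 for MI, 150 to 3720 for iBET and 0 to 1368 for MM-401. Against MM-401 it was 1556 to 2612 for EPZ, 1729 to 2613 for MI and 183 to 274 for iBET, and for MI against EPZ 0 to 0. A lone library left in a group is assumed to vary like the other groups.

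The replicate numbers of the labels are not stated to mark a shared culture or day, and deviations of same-numbered libraries correlated between 0.278 and 0.666 over 10 pairs of groups. With the replicate block, 3088 genes were called for iBET against DMSO, 2470 for iBET against MM-401 and 4 for MI against EPZ. Among TALE genes the block added Meis3 for MI against DMSO (edgeR adjusted p = 0.0384) and Pknox1 for EPZ against MM-401 (edgeR adjusted p = 0.0464) and changed no other call. Depth limits Meis2, Meis3 and Pbx4, whose counts in some groups were under 10 reads per library.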

Other observations

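The DMSO libraries differed for further developmental genes. Irx5 had 425 reads in DMSO replicate 1 and 4 in replicate 2, and Hoxa11 had 4860 and 385. In the other direction Eya1 had 0 and 1093 reads, Hoxb4 had 2 and 125, and the cytotoxic granule gene Nkg7 was at 1.52 and 65.7 TMM CPM. These genes were named after their values were seen.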
